A study of Mus musculus with 6 samples.

Results

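Nrcam, its relatives Chl1 and Nfasc, the neural cell adhesion molecules Ncam1 and Ncam2, and the ankyrins Ank1, Ank2 and Ank3 were followed in C2C12 myotubes after knockdown of SENP7. These 8 genes, of 55401 in the deposited table, were chosen by name, with the rise of Nrcam in this same comparison already known. Their differences between the groups are therefore a description and carry no p-value. One group of cells received an siRNA that targets SENP7, an enzyme that cuts SUMO off its substrates, and the control cells received the GL2 siRNA, directed against firefly luciferase. C2C12 is a mouse myoblast line whose cells fuse into myotubes in low-serum medium; all the libraries came from this line, differentiated in DMEM with 2% horse serum. The siRNA dose was 100 pmol in both groups and the cells were taken after 3 days. Polyadenylated RNA was sequenced from 3 libraries per group, which the submitters call biological replicates, and the sources used here do not say whether they came from cultures grown apart in time.

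L1-type molecules are transmembrane proteins with immunoglobulin and fibronectin type III domains outside the cell, and the tail inside the cell binds ankyrin. Ankyrins in turn tie membrane proteins to the spectrin skeleton. NrCAM and neurofascin are best known at nodes of Ranvier and axon initial segments. NCAM, a related immunoglobulin-type molecule, is present on myoblasts, on young myotubes and at the neuromuscular junction, and can carry polysialic acid; in adult muscle fibres ankyrins hold ion transporters and dystrophin-associated proteins at the membrane and link the sarcoplasmic reticulum to the sarcomere.

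The promoter windows of Nrcam and Ncam2 are shown because the windows are alike in base composition while Nrcam RNA was measured and Ncam2 RNA was almost absent. The windows run from 250 bases before to 50 bases after the RefSeq start in build GRCm38.p6, both on the plus strand, at chr12:44328635-44328934 for Nrcam and chr16:81200447-81200746 for Ncam2. Capitals mark matches, on either strand, to the E-box CANNTG, the core bound by myogenic basic helix-loop-helix factors, and to the GC box GGGCGG.
Nrcam: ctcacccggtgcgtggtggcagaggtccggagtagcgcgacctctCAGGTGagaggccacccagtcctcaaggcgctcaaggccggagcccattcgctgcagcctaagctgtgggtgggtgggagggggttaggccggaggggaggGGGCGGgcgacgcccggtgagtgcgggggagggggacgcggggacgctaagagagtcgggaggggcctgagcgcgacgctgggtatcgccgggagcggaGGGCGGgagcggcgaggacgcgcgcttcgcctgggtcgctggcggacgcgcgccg
Ncam2: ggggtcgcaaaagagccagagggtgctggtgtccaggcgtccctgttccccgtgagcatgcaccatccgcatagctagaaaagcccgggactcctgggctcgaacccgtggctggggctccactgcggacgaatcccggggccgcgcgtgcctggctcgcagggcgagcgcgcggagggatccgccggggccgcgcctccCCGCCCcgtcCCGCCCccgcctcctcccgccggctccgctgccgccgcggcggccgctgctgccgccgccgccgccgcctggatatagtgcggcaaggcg
The Nrcam window held 74% G and C, 37 CpG, 1 E-box match and 2 GC boxes. The Ncam2 window held 75.7% G and C, 41 CpG, no E-box match and 2 GC boxes. Over 32851 windows of 27025 genes the median was 52.7% G and C and 7 CpG, an E-box match stood in 72.3% and a GC box in 35.7%. The CpG counts of Nrcam and Ncam2 thus lay at the 94.4 and 96.5 percentiles of all windows. Nrcam had 285 to 460 reads per library after SENP7 siRNA but only 10 to 15 in control libraries, and Ncam2 had 1 read in all. A TATA box, TATAAA, stood in 13.6% of all windows and the TEAD element CATTCC in 14.7%, and neither window held a match. Of the 8 genes, 5 had a window in the table, and the letters of a window say nothing of which factors bind there.

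The libraries held 25223218 to 30865945 reads assigned to genes. Senp7, the siRNA target, had normalized counts of 275, 279 and 347 in SENP7 siRNA libraries, against 556, 616 and 649 in control libraries. Its log2 fold change, here and below on the log2(normalized count + 1) scale and SENP7 over control, was -1.02 ± 0.11 (SE; limma adjusted p = 0.000428). The groups did not overlap. Control replicate 3 stood apart from the other controls: leaving it out raised the number of genes past an adjusted p of 0.05 to 4702, against 3062 with all libraries, and SENP7 replicates 1 and 2 were the most alike of the within-group comparisons. Of 8 myotube markers 2 rose, Ckm and Mymk, and the summed level of the list was 662353 to 734242 in SENP7 siRNA libraries and 580841 to 624212 in control libraries. Over all tested genes 20.9% passed, a share to set beside each marker list here and below. Myh3, the largest term of the sum, averaged 228223 in SENP7 siRNA libraries and 179668 in control libraries and did not pass (limma adjusted p = 0.0635). Only Des was lower, with 98027 in SENP7 siRNA libraries and 112839 in control libraries, and did not pass. Myoblast markers summed to 19680 to 20749 in SENP7 siRNA libraries and 18616 to 20300 in control libraries, with Pax7 and Vcam1 higher among 5. None of the 5 cycling-cell markers passed the test; they summed to 5022 to 6588 in SENP7 siRNA libraries and 5670 to 7758 in control libraries.

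Because Nrcam, neurofascin and CHL1 are typical of nerve cells and their glia, the markers of those cells stand here beside them. Of 12 neuron markers 6 were tested, none rose and 2 fell, Tubb3 and Nefm; their summed level was 4073 to 4773 in SENP7 siRNA libraries and 4723 to 5799 in control libraries. Rbfox3 and Snap25, which mark mature neurons, had no read in any library. Nefl, Elavl3, Elavl4 and Slc17a6 were not tested either. Nefl averaged 7.90 in SENP7 siRNA libraries and 34.3 in control libraries, and Elavl3 averaged 5.41 and 3.09. Elavl4 and Slc17a6 were at 0 in the control libraries and at no more than 0.947 in any SENP7 siRNA library. The other tested markers, Stmn2, Syn1, Map2 and Syp, were expressed in both groups and did not pass the test. Stmn2 averaged 2663 in SENP7 siRNA libraries and 2550 in control libraries. Syn1 averaged 550 and 584, and Map2 439 and 435, in the same order. Of 9 Schwann cell and glia markers 5 were tested and 1 rose, S100b. They summed to 4749 to 5616 in SENP7 siRNA libraries and 5357 to 6141 in control libraries. Erbb3 alone averaged 5116 in SENP7 siRNA libraries and 5594 in control libraries, while Sox10 was at no more than 1.01 in any library. Fibroblast markers summed to 57663 to 64101 in SENP7 siRNA libraries and 33563 to 56403 in control libraries, with Dcn higher and Ly6a lower among 4 tested of 5. Most of that sum was Col1a1, which averaged 57503 in SENP7 siRNA libraries and 43981 in control libraries and did not pass (limma adjusted p = 0.15). The control values of Col1a1 were 53078, 49174 and 29692, with replicate 3 the lowest. Pdgfra averaged 253 in SENP7 siRNA libraries and 280 in control libraries and did not pass either. Of 4 endothelial markers 1 was tested, Tek, which rose, and they summed to 20.8 to 25.7 in SENP7 siRNA libraries and 10.01 to 17.5 in control libraries. The part of the fibroblast and endothelial marker levels in the results below was not tested. In bulk RNA, more cells that express a gene and more of its RNA per cell cannot be told apart.

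Nrcam had the largest difference among the members. Its normalized counts were 408, 440 and 270 in SENP7 siRNA libraries, against 10.1, 16.7 and 10.7 in control libraries. Every SENP7 siRNA library was more than an order of magnitude above every control library, and the lowest SENP7 value, in replicate 3, also set most of the spread in that group. The means were 373 ± 90.3 in SENP7 siRNA libraries and 12.5 ± 3.65 in control libraries (SD, n = 3 each), a ratio of 29.8. The log2 fold change was 4.79 ± 0.24 (SE), with a 95% interval of 4.24 to 5.35. The control values rest on 36 reads in all, 10, 15 and 11 per library, while the SENP7 values rest on 1156 reads. Counted per assigned read, Nrcam was 30.5 times as frequent in SENP7 siRNA libraries, with an exact 95% interval of 21.9 to 43.8 that covers counting error only. The coefficient of variation was 24.2% in SENP7 siRNA libraries and 29.2% in control libraries. The authors' deposited table gives a log2 fold change of 3.50 with a standard error of 0.20 for Nrcam; single-read genes have values near 0 there, so its fold changes look shrunken towards 0.

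**Figure D1:**
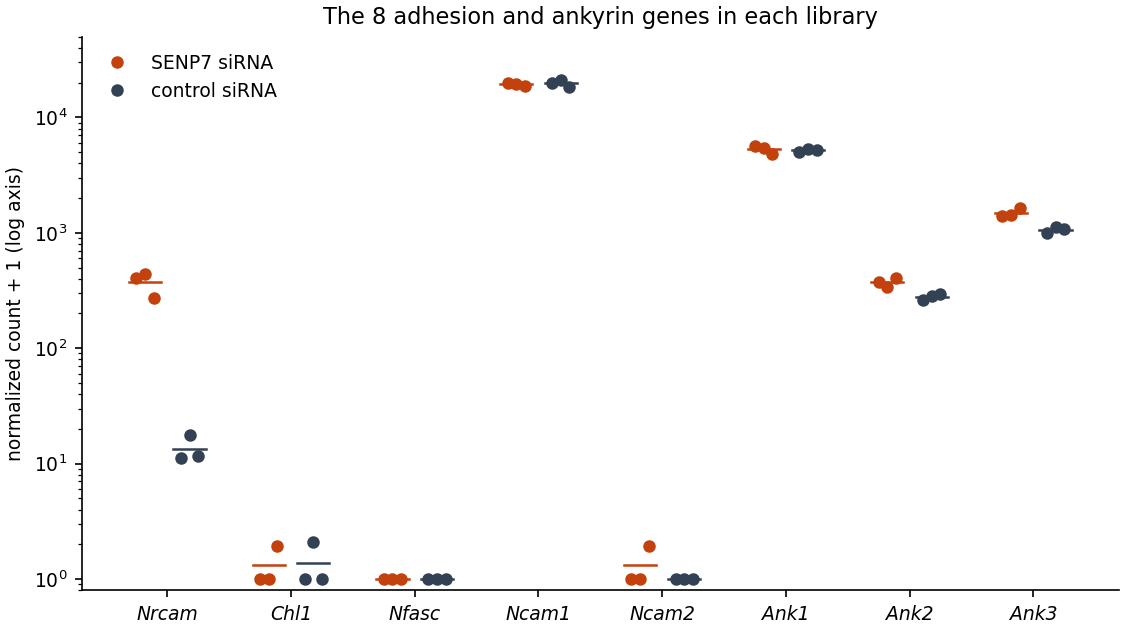
Normalized counts of the 8 genes in each library on a log axis of normalized count + 1, SENP7 siRNA left of control siRNA within each gene, with bars at the group means. The SENP7 siRNA values of Nrcam, 270 to 440, lie above its control values of 10.1 to 16.7, Ncam1 and Ank1 overlap between the groups, and Chl1, Nfasc and Ncam2 lie at the bottom.

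Nrcam lies on the plus strand of chromosome 12, from 44328885 to 44601964 in GRCm38, with 13358 bases of exon in 17 annotated transcripts, of which 7 are coding. The values count all its exons together, so that transcripts cannot be told apart. No other annotated gene overlaps its exons. The nearest tested neighbour, Pnpla8, which encodes a phospholipase, lies 6.35 kb before the start of Nrcam. It averaged 1330 ± 49.9 in SENP7 siRNA libraries and 1511 ± 162 in control libraries (SD, n = 3 each). The change, -0.18 ± 0.08 on the log2 scale, did not pass the test (limma adjusted p = 0.151). Among the 16 nearest tested neighbours of the 8 genes, 1 passed the threshold, Trnt1, 3019 kb from Chl1. The share that passed over all tested genes was 20.9%. Of the 9 neighbours within 100 kb the largest change in size was -0.41, of Ttc12 beside Ncam1, which did not pass (limma adjusted p = 0.0612).

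Of the other L1-type genes, Chl1 and Nfasc had too few reads to be compared, and L1cam did not rise with Nrcam. Chl1, close homologue of L1, had 1 read in all SENP7 siRNA libraries together and 1 read in all control libraries together. Nfasc, the neurofascin gene, had no read in either group. A count of 0 allows up to 3 reads, or 0.0354 CPM (reads scaled to the assigned total) over the SENP7 siRNA libraries and 0.0372 CPM over the control libraries, so any expression of Nfasc below that was not detectable at this depth. L1cam, the founder of the family and not among the 8 genes, had normalized counts of 400, 397 and 455 in SENP7 siRNA libraries, against 429, 485 and 470 in control libraries. The groups overlapped, and its log2 fold change of -0.15 ± 0.09 did not pass the test (limma adjusted p = 0.278). Chl1 lies on chromosome 6, 103510586 to 103750211, plus strand, and Nfasc on chromosome 1, 132564690 to 132741797, minus strand.

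The make-up of L1-type RNA therefore differed between the groups. Levels were divided by exon length to compare genes; a gene with many partial isoforms, such as the ankyrins, is understated by this. Nrcam had 27.9 ± 6.76 normalized counts per kb in SENP7 siRNA libraries and 0.935 ± 0.273 in control libraries, and L1cam had 56.8 ± 4.42 in SENP7 siRNA libraries and 62.8 ± 3.92 in control libraries (SD, n = 3 each). Nrcam thus made up 35.9%, 37.9% and 24.6% of the family's summed level in SENP7 siRNA libraries, against 1.27%, 1.85% and 1.24% in control libraries. The summed level was 84.7 ± 2.39 per kb in SENP7 siRNA libraries and 63.8 ± 4.17 per kb in control libraries. L1cam was the more abundant of the family in every library, and the low Nrcam share of SENP7 replicate 3 went with the highest L1cam value of that group.

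**Figure D2:**
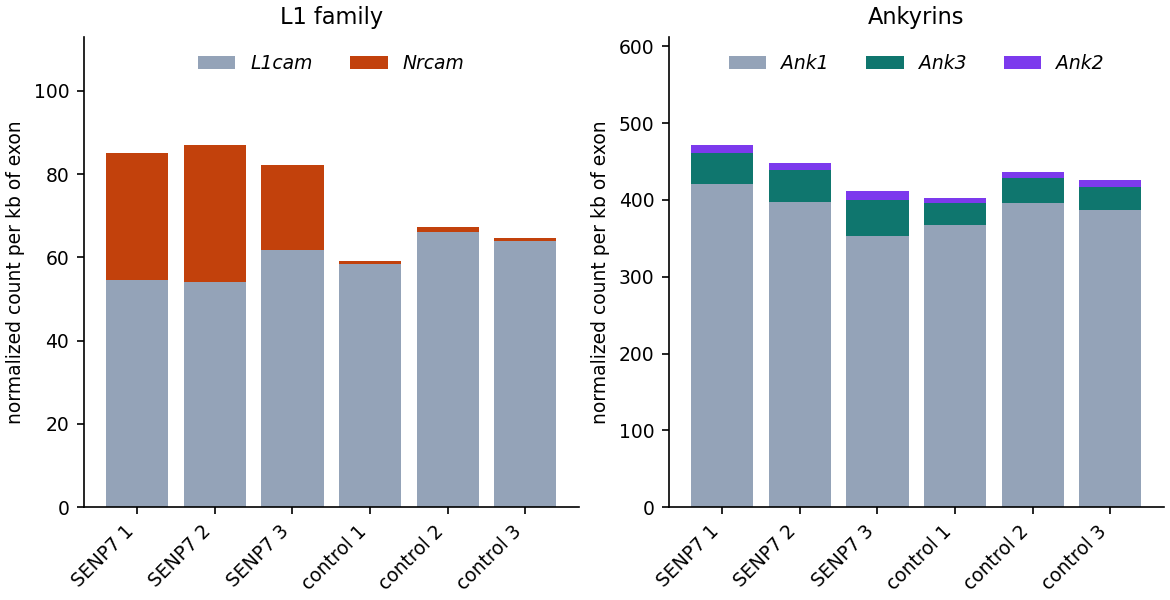
Stacked normalized counts per kb of exon in each library, SENP7 siRNA libraries left of control libraries, for the L1 family (L1cam and Nrcam, left panel) and for the ankyrins (Ank1, Ank3 and Ank2, right panel). Nrcam fills 24.6% to 37.9% of the L1 family bar in SENP7 siRNA libraries and 1.24% to 1.85% in control libraries, while Ank1 fills most of every ankyrin bar.

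Ncam1, the NCAM gene, was by far the most abundant of the 8 and showed no difference beyond its spread. Its normalized counts were 19984, 19419 and 18756 in SENP7 siRNA libraries, against 19720, 21011 and 18475 in control libraries. The SENP7 values all lay within the range of the controls. Its log2 fold change was -0.02 ± 0.07 (SE), with a 95% interval of -0.19 to 0.14, and leaving out control replicate 2 turned it to 0.02. The minus-strand gene lies on chromosome 9, 49502136 to 49798925; 4.81% of its exon length overlaps Gm11149 on the other strand, which had 37 reads in all 6 libraries. Ncam2, a paralogue best known from olfactory neurons, had 1 read in the SENP7 siRNA libraries and none in the control libraries; it lies on chromosome 16, 81200697 to 81626828, plus strand.

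The ankyrins differed among themselves. Ank1, whose small muscle isoforms sit in the sarcoplasmic reticulum and bind obscurin, had normalized counts of 5681, 5377 and 4776 in SENP7 siRNA libraries, against 4964, 5364 and 5228 in control libraries. The groups overlapped, with SENP7 libraries at both ends. The log2 fold change of Ank1 was 0.02 ± 0.08 (SE), with a 95% interval of -0.15 to 0.19, and it turned to -0.03 without SENP7 replicate 1 and to -0.01 without control replicate 1. Ank1 lies on the plus strand of chromosome 8, 22974844 to 23150497, and shares 6.37% of its exon length with Gm15816 on the other strand, which had 56 reads in all.

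Ank3, ankyrin-G, the ankyrin that gathers sodium channels and L1-type molecules at axon initial segments, had normalized counts of 1410, 1434 and 1637 in SENP7 siRNA libraries, against 993, 1124 and 1073 in control libraries. All 3 SENP7 values lay above all 3 control values. The means were 1493 ± 125 and 1063 ± 66.0 in SENP7 siRNA and control libraries (SD, n = 3 each), a ratio of 1.40, and the log2 fold change was 0.49 ± 0.08 (SE) with a 95% interval of 0.31 to 0.66. Ank2, ankyrin-B, which holds ion transporters and dystrophin-complex proteins at the muscle membrane, had 374, 341 and 402 in SENP7 siRNA libraries, against 259, 283 and 297 in control libraries. These groups did not overlap either. The log2 fold change of Ank2 was 0.41 ± 0.10 (SE), with a 95% interval of 0.19 to 0.63 and a ratio of means of 1.33. Ank3 lies on chromosome 10, 69398773 to 70027438, plus strand, with 47 annotated transcripts, and Ank2 on chromosome 3, 126921612 to 127499350, minus strand; Ank2 shares 0.513% of its exon length with Gm16958, which had no read. The authors' deposited table gives log2 fold changes of 0.47 for Ank3, with a standard error of 0.09, and 0.38 for Ank2, with a standard error of 0.12.

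Per kb of exon, Ncam1 came first with 2238 ± 70.9 in SENP7 siRNA libraries and 2278 ± 146 in control libraries (SD, n = 3 each). Ank1 followed with 390 ± 34.0 in SENP7 siRNA libraries and 383 ± 15.0 in control libraries. Ank3 had 42.9 ± 3.58 in SENP7 siRNA libraries and 30.5 ± 1.89 in control libraries, and Ank2 had 10.5 ± 0.851 in SENP7 siRNA libraries and 7.87 ± 0.536 in control libraries. With SENP7 siRNA the order of the 5 measured members was Ncam1, Ank1, Ank3, Nrcam and Ank2, and in control libraries Nrcam came last, below Ank2; in both groups the values of adjacent genes in this order did not overlap. Ank1 made up 87.9% ± 1.80 of the summed ankyrin level in SENP7 siRNA libraries and 90.9% ± 0.183 in control libraries. The share of Ank3 was 9.73% ± 1.49 in SENP7 siRNA libraries and 7.23% ± 0.155 in control libraries, and that of Ank2 was 2.38% ± 0.327 in SENP7 siRNA libraries and 1.87% ± 0.0845 in control libraries.

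Of the 8 genes 5 reached a normalized count of 10 in at least 3 libraries and were tested; Chl1, Nfasc and Ncam2 were not. Of these 5, 3 passed an adjusted p of 0.05, all higher, where 20.9% of 14668 tested genes passed, 10.2% higher and 10.7% lower. The same 3 genes, Nrcam, Ank2 and Ank3, had groups that did not overlap, as did 39.6% of all tested genes. Since the genes were picked with this comparison known, nothing is read from these counts. Ank2 no longer passed without SENP7 replicate 1, without SENP7 replicate 3 or without control replicate 2, with log2 fold changes of 0.41, 0.35 and 0.42 in those fits, while Nrcam and Ank3 passed in all 15 alternatives.

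**Figure D3:**
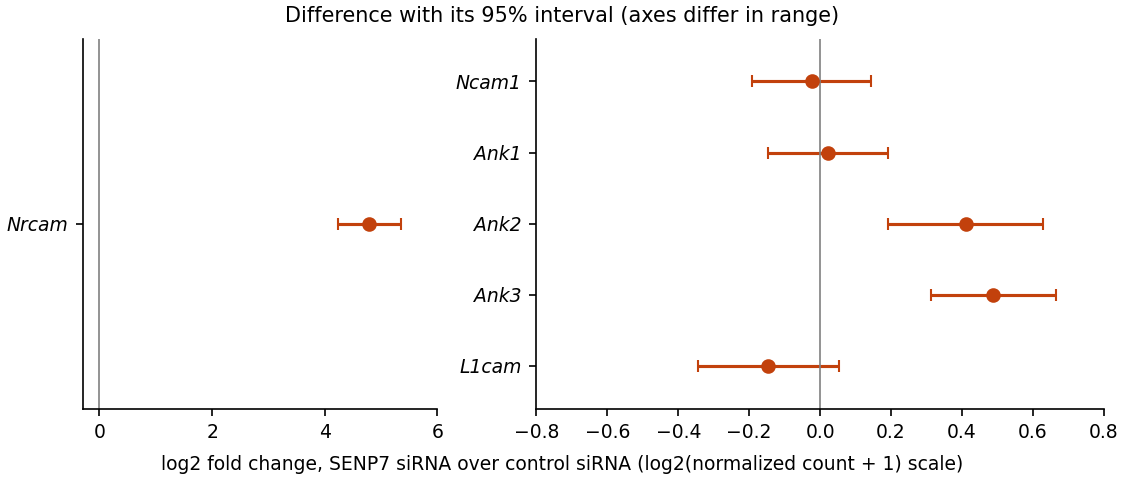
Log2 fold change, SENP7 siRNA over control siRNA, with its 95% interval from limma on log2(normalized count + 1), of Nrcam in the left panel and of the other 4 tested members and L1cam in the right panel, which has a narrower axis. The interval of Nrcam is 4.24 to 5.35, those of Ank2 and Ank3 lie above 0, and those of Ncam1, Ank1 and L1cam span 0.

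The list of partners of L1-type molecules and NCAM was mixed in direction. It held extracellular and receptor proteins, L1cam itself, and proteins inside the cell such as Gap43 and Ezr. Of 29 listed genes 18 were tested; 2 rose and 1 fell, which is 16.7%, beside 20.9% of all tested genes. The list's median log2 fold change was 0.02, against -0.0025 over all tested genes. Gfra1, the GDNF co-receptor through which NCAM can bind GDNF, had normalized counts of 2129, 2396 and 2683 in SENP7 siRNA libraries, against 936, 1058 and 1173 in control libraries. Every SENP7 value was above every control value, with a log2 fold change of 1.19 ± 0.10 (limma adjusted p = 0.000163). Sema3a, a secreted guidance cue whose receptor complex can hold L1-type molecules, averaged 1417 ± 21.9 in SENP7 siRNA libraries and 1009 ± 108 in control libraries (SD, n = 3 each; log2 fold change 0.49, limma adjusted p = 0.00302). Gap43, a growth-cone protein downstream of NCAM in neurons, fell: it had 13.3, 15.0 and 5.68 in SENP7 siRNA libraries, against 46.4, 46.7 and 28.2 in control libraries. Its log2 fold change was -1.81 ± 0.37 (limma adjusted p = 0.00946), and it did not pass without control replicate 2 (0.0545). Ezr, a linker to actin, came next by p, with 3137 in SENP7 siRNA libraries and 2682 in control libraries, and did not pass (limma adjusted p = 0.0778). Among those not tested, Tnr, an extracellular matrix ligand of contactins, had 16.9, 8.56 and 46.4 in SENP7 siRNA libraries, against 4.03, 6.68 and 1.95 in control libraries; it was singled out after its values were seen. Without control replicate 3, 4 genes of the list were higher and 1 was lower, in a fit where 4702 of all 14668 genes passed.

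Of the enzymes that modify or cut these adhesion molecules, all 11 listed were tested, 3 rose and none fell, with a median log2 fold change of 0.03; the 27.3% that passed stand beside 20.9% of all tested genes. Bace2, an aspartyl protease related to the beta-secretase that cleaves CHL1, had normalized counts of 79.0, 99.5 and 71.0 in SENP7 siRNA libraries, against 22.2, 18.9 and 19.5 in control libraries. The SENP7 values were all above the controls, with a log2 fold change of 1.98 ± 0.19 (limma adjusted p = 0.000275). Its relative Bace1 had 2260 ± 148 in SENP7 siRNA libraries and 2569 ± 104 in control libraries and did not pass (SD, n = 3 each; log2 fold change -0.19, limma adjusted p = 0.0766). Exons of Bace1 overlap Rnf214 on the other strand over 15.4% of their length. St8sia2, which builds polysialic acid on NCAM, had 111, 120 and 126 in SENP7 siRNA libraries, against 84.7, 85.7 and 67.1 in control libraries. The log2 fold change of St8sia2 was 0.59 ± 0.14 (limma adjusted p = 0.0208), and it did not pass when SENP7 replicate 1, 2 or 3 was left out, at limma adjusted p = 0.0559, 0.0773 and 0.0678. St8sia4, the other polysialyltransferase, named after its values were seen, had 15.1, 17.1 and 13.3 in SENP7 siRNA libraries, against 21.2, 35.6 and 23.3 in control libraries. These groups did not overlap, with the SENP7 values lower, but the difference did not pass the test (log2 fold change -0.75, limma adjusted p = 0.0781). Psen2, a catalytic subunit of gamma-secretase, averaged 693 ± 16.8 in SENP7 siRNA libraries and 575 ± 38.4 in control libraries (log2 fold change 0.27, limma adjusted p = 0.0291), and did not pass in 5 of the 6 fits that leave out a library. Only 1 of these enzymes passed without SENP7 replicate 1 or without SENP7 replicate 2, in fits where 1660 and 1619 of all 14668 genes passed.

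The spectrin skeleton, to which ankyrins attach, had 18 tested genes of 19, of which 2 rose and 2 fell, with a median log2 fold change of 0.04; the 22.2% that passed are near the 20.9% of all tested genes. Tmod1, a tropomodulin that caps the pointed ends of actin filaments in red cells and sarcomeres, had 5888, 5720 and 5572 in SENP7 siRNA libraries, against 2707, 2882 and 3277 in control libraries. It rose with a log2 fold change of 0.96 (limma adjusted p = 0.000102); 32.6% of its exon length overlaps Tstd2 on the other strand, which had 6523 reads in all 6 libraries where Tmod1 had 26510. Tmod3, the widespread form, fell to 1332 ± 179 in SENP7 siRNA libraries, against 1821 ± 73.5 in control libraries (SD, n = 3 each; log2 fold change -0.46, limma adjusted p = 0.00864). Of the 3 adducins, which join spectrin to actin, Add2 fell, Add3 rose and Add1, the most abundant, did not pass the test. Add1 averaged 6782 ± 112 in SENP7 siRNA libraries and 6914 ± 76.1 in control libraries (SD, n = 3 each; log2 fold change -0.03, limma adjusted p = 0.757). Add2 had 41.7, 27.8 and 36.9 in SENP7 siRNA libraries, against 167, 176 and 90.5 in control libraries, with control replicate 3 the lowest of its group. Its log2 fold change was -1.96 ± 0.27 (limma adjusted p = 0.00149), and that of Add3 was 0.56 (limma adjusted p = 0.00473), with 1005 ± 110 in SENP7 siRNA libraries and 680 ± 61.4 in control libraries. Without control replicate 3, 6 genes of the list were higher and 3 were lower, in a fit where 4702 of all 14668 genes passed. Leaving out each other library in turn gave 2 or 3 higher and 2 or 3 lower.

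Among the membrane and sarcomere proteins that ankyrins bind, 8 rose and 1 fell of 19 tested genes, 24 being listed, and the median log2 fold change was 0.31. The 47.4% that passed stand beside 20.9% of all tested genes; without control replicate 3 the list had 14 higher and 1 lower, in a fit where 4702 of all 14668 genes passed. Without SENP7 replicate 1, SENP7 replicate 2 or control replicate 2 it had 5 higher and 1 lower, in fits where 1660, 1619 and 1633 of all genes passed. Without SENP7 replicate 3 the list had 5 higher and 2 lower, where 2200 of all genes passed. Atp1b1, a beta subunit of the sodium pump, had 1942, 1883 and 1812 in SENP7 siRNA libraries, against 1224, 1213 and 1408 in control libraries. The groups did not overlap, and control replicate 3 lay nearest to the SENP7 libraries. The means of Atp1b1 were 1879 ± 65.1 in SENP7 siRNA libraries and 1282 ± 110 in control libraries (SD, n = 3 each; log2 fold change 0.55, limma adjusted p = 0.00115). Dmd, dystrophin, was the gene that fell, with 288, 243 and 228 in SENP7 siRNA libraries, against 511, 730 and 862 in control libraries. With a log2 fold change of -1.44 ± 0.18 (limma adjusted p = 0.000861), all SENP7 values lay below all control values. On the other strand, Nme7 overlaps 18.7% of the exon length of Atp1b1.

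**Figure D4:**
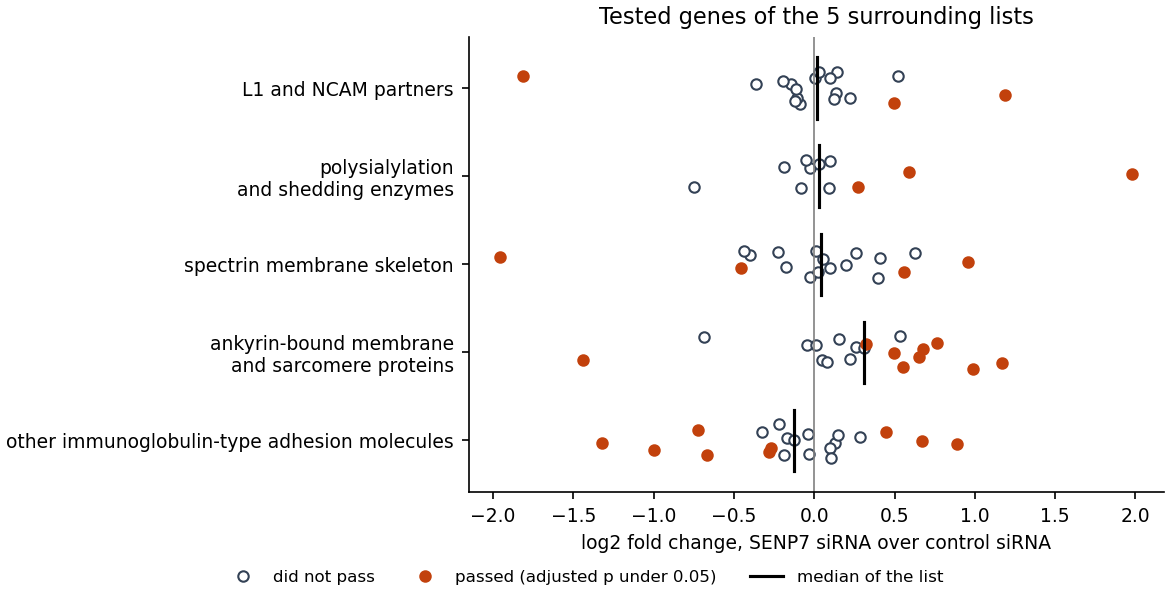
Log2 fold change, SENP7 siRNA over control siRNA, of each tested gene in the 5 lists of related genes, with points past an adjusted p of 0.05 marked and a line at each list's median. The median of the ankyrin-bound proteins is 0.31, and those of the other lists are between -0.13 and 0.04.

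Other immunoglobulin-type adhesion molecules showed changes in both directions. Of 30 listed 21 were tested, 3 rose and 6 fell, and the median log2 fold change was -0.13; 42.9% passed, beside 20.9% of all tested genes. Jam2, a junctional adhesion molecule of myoblasts and endothelium, had 2083, 2034 and 1955 in SENP7 siRNA libraries, against 4972, 5225 and 4977 in control libraries. Its groups were tight and far apart (log2 fold change -1.32 ± 0.06, limma adjusted p = 7.23e-06). Its relative Jam3 rose, with 978 ± 46.7 in SENP7 siRNA libraries and 615 ± 42.4 in control libraries (SD, n = 3 each; log2 fold change 0.67, limma adjusted p = 0.000517). Gm48796 on the other strand overlaps 36.2% of the exon length of Jam3 and had 49 reads in all, where Jam3 had 4855. Bcam, a laminin receptor, fell to 2488 ± 245 in SENP7 siRNA libraries, against 4115 ± 431 in control libraries (log2 fold change -0.72, limma adjusted p = 0.00125). Vcam1, which also counted among the myoblast markers above, rose, with 1470, 1716 and 2123 in SENP7 siRNA libraries, against 938, 886 and 1016 in control libraries (log2 fold change 0.89, limma adjusted p = 0.00148).

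The strand setting of the authors' counting is not given in the sources used here. Reads of overlapping genes on opposite strands may therefore not be told apart, as in the values of Tmod1, Jam3, Atp1b1, Bace1 and Nefm. Nefl, on the other strand, overlaps 19.2% of the exon length of Nefm and had 122 reads where Nefm had 342.

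The genes whose values were most like those of Nrcam across the 6 libraries were Sln, Gnb3, Krt33b, Dbpht2 and Fam135b. Likeness was the Euclidean distance between log2(normalized count + 1) values after each gene's mean was subtracted, over 12827 ranked genes, on a scale where Nrcam's own distance from a flat line was 5.92. Sln, which encodes sarcolipin, an inhibitor of the sarcoplasmic calcium pump, was nearest at 1.13, with 33.7, 28.9 and 21.8 in SENP7 siRNA libraries, against 1.01, 1.11 and 0 in control libraries. Gnb3, a G protein beta subunit, followed at 1.48, with 24.6 to 33.7 in SENP7 siRNA libraries and 0.973 to 2.23 in control libraries. Krt33b, a hair keratin gene, lay at 1.61, Dbpht2 at 1.89 and Fam135b at 1.92. All 5 had under 5 normalized counts in each control library and passed the low-count limit through the SENP7 libraries, so they had to differ, and their nearness to Nrcam is a description. Nrcam itself had at least 10 in every library.

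**Figure D5:**
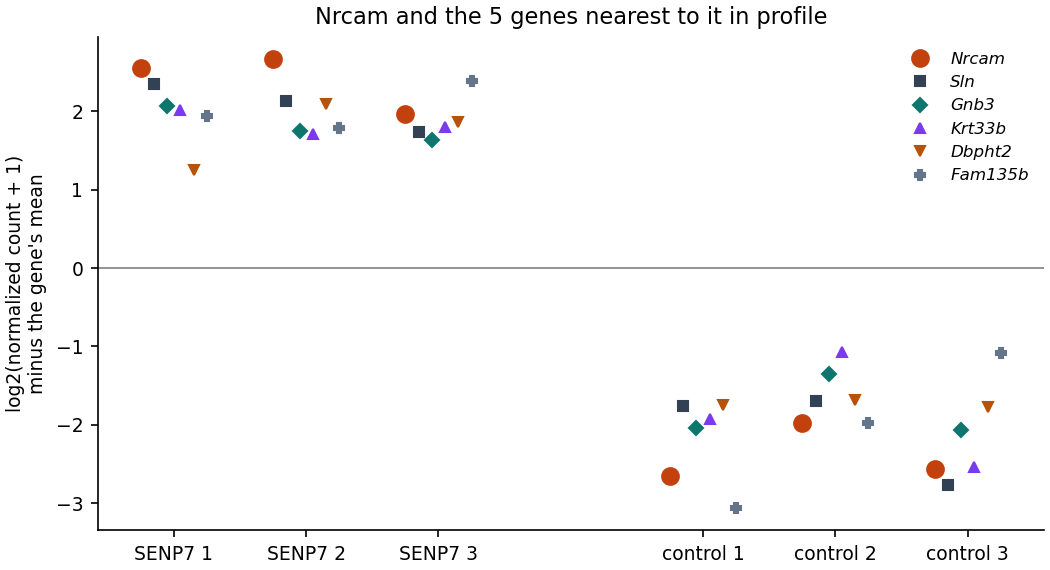
Centred log2(normalized count + 1) of Nrcam and of the 5 genes most like it in each library, SENP7 siRNA libraries left of control libraries. All 6 genes are high in the 3 SENP7 siRNA libraries and low in the 3 control libraries, and Nrcam is the highest of them in SENP7 replicates 1 and 2.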

How the data were processed

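RNA-seq values of 6 libraries, 3 per group, came from 1 table. Per the submitters' processing notes, the tools include DESeq2, featureCounts 1.6.4, STAR 2.6.1d, Trim Galore 0.6.4 and bcl2fastq, and the build is GRCm38.p6. The library columns hold the authors' normalized signal, which from the values is a gene's reads over a library factor; 100% of positive values were whole reads within 0.1 read, although an automatic check of this failed for 1 library whose step lies near 1. The log2 fold changes that the authors deposited are printed only where named. Members, lists, markers and tests were chosen with earlier results of these data known.

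limma 3.58.1 (R 4.3.3), with trend and robust empirical Bayes, was fitted to log2(normalized count + 1) with group as its only term. Genes reaching 10 in 3 or more libraries were tested, two-sided, with Benjamini-Hochberg adjustment over all 14668 genes. The fit was also run on simulated counts with the same dispersion for every gene and no outlying library, and no result here rests on that. The log2(normalized count + 1) scale understates changes of low genes. If the libraries of a group are not separate cultures, p-values measure technical spread. Of each list, up to 4 tested genes with the smallest adjusted p were named, with all 8 members, Senp7 and the 5 genes most like Nrcam; some genes under this rule are not reported here. Alternatives were edgeR 4.0.16 and DESeq2 1.42.0 on recovered reads, TMM or quantile scaling, no filter or a mean of at least 50, pseudocounts of 0.5 and 5, a replicate block, and leaving out each library. Blank gene names, 987, were filled for 727 from GENCODE M21, whose 54349 shared identifiers had the same coordinates. Promoters came from RefSeq. No protein sequence was used here.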

Additional observations from a re-analysis of the deposited data

How the results depend on the processing

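Of 75 values of the 5 tested members under 15 alternatives, 69 kept direction and side of the threshold, 3 of Ank2 lost the call, and 3 reversed: Ncam1 to 0.0219 without control replicate 2, and Ank1 to -0.0324 without SENP7 replicate 1 and to -0.00851 without control replicate 1. Leaving out each library in turn gave log2 fold changes of -0.0708 to 0.0219 for Ncam1 and of -0.0324 to 0.0928 for Ank1. Of 384 values of 26 other genes under the naming rule, 372 kept both, 9 lost the call and 3 gained it. The same omissions gave 1619 to 4702 genes past the threshold (3062 with all), with 4702 without control replicate 3, 1619 without SENP7 replicate 2, 1660 when SENP7 replicate 1 was dropped and 1633 when control replicate 2 was dropped; the ranges were 2 to 3 of the members, 2 to 5 of the partners, 1 to 3 of the shedding enzymes, 4 to 9 of the spectrin list, 6 to 15 of the ankyrin-bound list and 6 to 11 of the other immunoglobulin-type list. Without a filter 5 of 27 tested partners passed, beside 3101 of all 27493 tested genes. Same-numbered libraries deviated together at r = 0.13, 0.0624 and 0.251, and differently numbered ones at r = -0.22 to 0.141. Whether equal numbers mark pairs is not known here, and the main fit did not pair the libraries. A replicate block called 4175 genes, 8 of them in the spectrin list, and 3 members. The cause of these differences was not tested. The size of the Nrcam difference is limited by counting, with 36 control reads, and by the spread among SENP7 siRNA libraries. Their coefficient of variation was 24.2%. Chl1, Nfasc and Ncam2 could not be compared.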
